A study of Rattus norvegicus with 12 samples.

Results

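Rat heart muscle cells that were stretched after Wnt5a siRNA were compared with unstretched cells that received a control siRNA, so the difference holds the effect of both treatments together. The comparison used 6 of the 12 RNA sequencing libraries of the series, 3 in each group, chosen by their labels and not by any measured value. All libraries came from cultured ventricular cardiomyocytes of newborn rats of the Wistar strain. The groups were stretched Wnt5a siRNA (Wnt5a siRNA with cell stretch, 3 libraries) and unstretched control (control siRNA without cell stretch, 3 libraries). The other 6 libraries were stretched control (control siRNA with cell stretch, 3) and unstretched Wnt5a siRNA (Wnt5a siRNA without cell stretch, 3), and they served here to say where each gene stood without 1 of the treatments. The unstretched control was not an untouched culture, because it carried a control siRNA. The labels do not state the siRNA sequences and doses, how far or how long the cells were stretched, or whether the 3 numbered libraries of a group came from separate cultures. The p-values thus rest on how far the 3 libraries of a group differ, and that spread may be technical only.

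Wnt5a is a secreted Wnt ligand known mainly for signalling that does not run through beta-catenin. Stretch of cardiomyocytes is a widely used model of mechanical load, which is known to raise the natriuretic peptide genes Nppa and Nppb and to act in part through the coactivators YAP and TAZ, which bind TEAD transcription factors. Cultures of newborn rat ventricles hold other cells of the heart beside the cardiomyocytes, chiefly fibroblasts, and in bulk RNA fewer cells of a type and less RNA per cell cannot be told apart.

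The values are FPKM, fragments scaled by transcript length and by the number of mapped fragments, so they can be set side by side between genes, and the sequencing depth behind them is unknown. A total of 10518 of 17312 gene symbols reached 1 FPKM in at least 3 of the 12 libraries and were tested. Changes are differences of log2(FPKM + 1), given ± standard error (SE) and tested with limma across all genes, and a gene was called where its Benjamini-Hochberg adjusted p was under 0.05. Sizes after "rose by" and "fell by" are on this log2 scale, which understates the change of genes at a low level. Summed FPKM lay between 619742 and 659933 in the stretched Wnt5a siRNA libraries, against 588509 to 598628 in the unstretched control libraries. Among the libraries outside the main comparison, replicate 3 of the stretched control stood apart: the SD of its log2 differences from the other 2 was 0.393 and 0.426, against 0.205 to 0.288 within all other pairs. Counts that rest on that group are also given without this library.

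Markers of the labelled cell type were abundant in every library, and markers of other cells differed between the groups. The summed level of 14 cardiomyocyte markers was 25160.1, 30599.9 and 22145.9 FPKM in the stretched Wnt5a siRNA libraries, against 32818, 33410.2 and 35978 FPKM in the unstretched control. The stretched Wnt5a siRNA libraries were all below the unstretched control, and 10 of the 14 markers fell. The cardiomyocyte sum was 43561.7, 46515.9 and 31626.6 FPKM in the stretched control and 23061.2 to 27093.1 FPKM in unstretched Wnt5a siRNA. Beside the counts of markers called here, 22.9% of all tested genes were higher and 23.2% lower in stretched Wnt5a siRNA. The 16 fibroblast markers summed to 9354, 9060.1 and 9656 FPKM in stretched Wnt5a siRNA, against 3629, 4146 and 3789 FPKM in unstretched control. Of the 15 fibroblast markers tested, 12 rose and 1 fell, and the summed levels did not overlap. The fibroblast sum was 5038, 5051 and 8627 FPKM in the stretched control, where the highest value belongs to replicate 3, and 5388 to 5676 FPKM in unstretched Wnt5a siRNA. Endothelial markers summed to 177 to 214 FPKM in stretched Wnt5a siRNA, against 113 to 129 FPKM in unstretched control, and 9 of 12 rose, or 5 without replicate 1 of either group. Macrophage and leukocyte markers summed to 388 to 435 FPKM in stretched Wnt5a siRNA, against 202 to 261 FPKM in unstretched control. Of these, 5 of 14 rose, or 3 to 8 with 1 library left out: 3 without stretched Wnt5a siRNA replicate 2 or 3 or unstretched control replicate 3, and 8 without stretched control replicate 3. Smooth muscle and pericyte markers summed to 3914 to 4678 FPKM in stretched Wnt5a siRNA, against 5354 to 6525 FPKM in unstretched control. Of 13, 3 were higher and 4 lower (median log2 change −0.19), so they held no common direction. Epicardial markers summed to 57.8 to 71.3 FPKM in stretched Wnt5a siRNA, against 53.2 to 61.8 FPKM in unstretched control, so these sums overlapped, while the stretched control had 136, 145 and 58.7 FPKM. Of the 8 epicardial markers, 4 rose, or 2 without stretched Wnt5a siRNA replicate 2 or 3 or unstretched control replicate 1 or 3. Schwann and neuronal markers had 2 of 4 higher, or 1 without unstretched control replicate 2, and erythroid markers 1 of 3 lower, or 2 without unstretched Wnt5a siRNA replicate 3. Of all marker lists, 1 fibroblast marker was at 0 in every library.

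**Figure D1:**
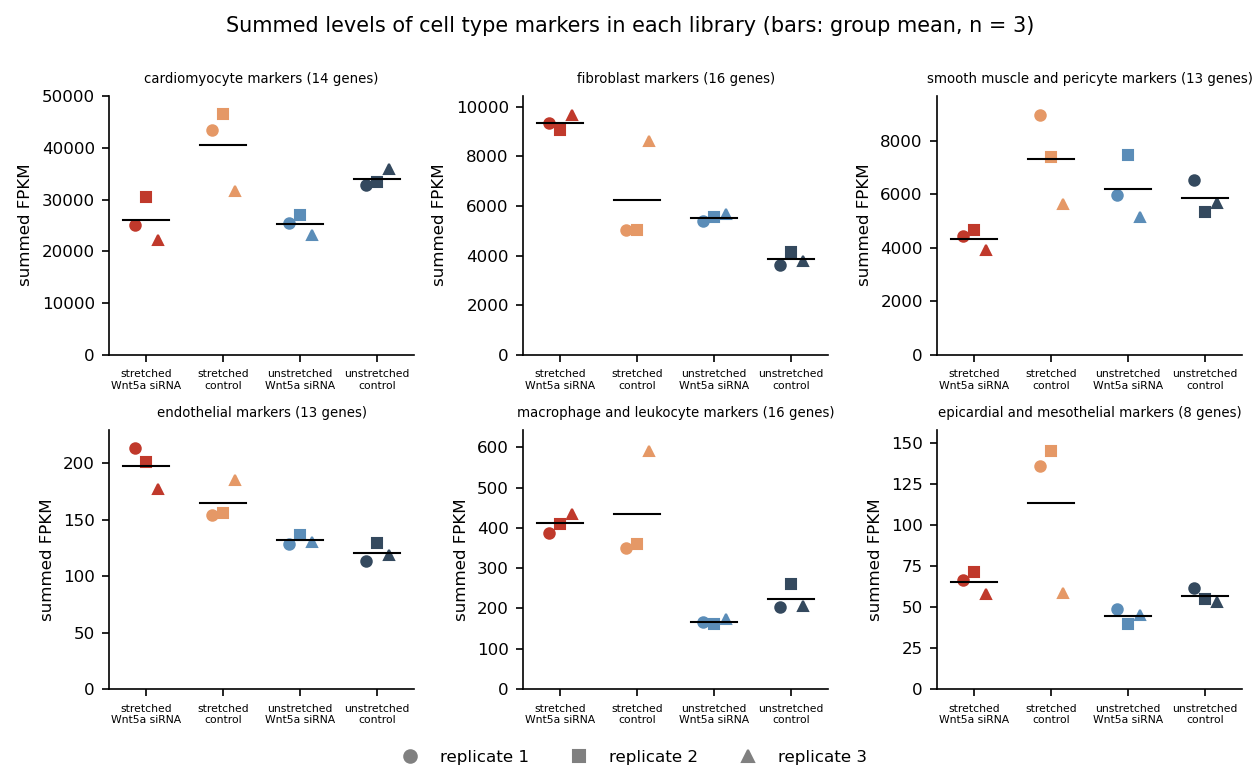
Summed FPKM (y axis) of 6 lists of cell type markers in each of the 12 libraries, by group (x axis); symbols mark the replicate number and bars the mean of 3 libraries. Fibroblast sums of 9060.1 to 9656 FPKM in stretched Wnt5a siRNA lie above the 3629 to 4146 FPKM of the unstretched control, and replicate 3 of the stretched control lies apart from its group.

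The target of the siRNA was low in the stretched Wnt5a siRNA libraries, and it was low in the stretched control as well. Wnt5a had 6.22, 5.88 and 5.56 FPKM in stretched Wnt5a siRNA, against 12.3, 10.4 and 11.6 FPKM in unstretched control. The groups did not overlap, and the mean was 51.5% of that in unstretched control. The log2 change was −0.85 ± 0.14, with an adjusted p of 4.4e-04 in limma. Wnt5a had 6.52, 5.66 and 8.22 FPKM in the stretched control and 6.15, 4.60 and 6.81 FPKM in unstretched Wnt5a siRNA, and each was called lower than the unstretched control. Between stretched Wnt5a siRNA and stretched control the log2 difference was −0.17, with a 95% interval of −0.47 to 0.14 and an adjusted p of 0.387, so a lower Wnt5a level in stretched cells with the Wnt5a siRNA than in those with the control siRNA was not detected. Yap1, which encodes YAP itself, had 59.4, 62.4 and 57.5 FPKM in stretched Wnt5a siRNA and 64.6, 62.6 and 68.7 FPKM in unstretched control. Its log2 change of −0.13 ± 0.067 was not called (adjusted p 0.144), but with values scaled to the same sum per library it was called at −0.24 (adjusted p 0.00833).

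Nppa and Nppb, the genes of the atrial and B-type natriuretic peptides, lay far below the stretched control and nearer the unstretched control. Nppa had 2921, 4141 and 1976 FPKM in stretched Wnt5a siRNA, against 1817, 1252 and 1415 FPKM in unstretched control, and all stretched Wnt5a siRNA libraries were the higher ones. The stretched control had 7829, 5749 and 10954 FPKM and unstretched Wnt5a siRNA 5693, 9162 and 3415 FPKM. Nppa thus stayed above the unstretched control, with a log2 change of 0.96 ± 0.35 and an adjusted p of 0.0384. This call is fragile: the adjusted p ranged from 0.00788 to 0.154 over the alternatives, and it was lost without stretched Wnt5a siRNA replicate 1 (0.0894) or 2 (0.154), unstretched Wnt5a siRNA replicate 1 (0.0516) or unstretched control replicate 2 (0.115) or 3 (0.0935). Nppb had 1163, 1694 and 642 FPKM in stretched Wnt5a siRNA and 943, 664 and 487 FPKM in unstretched control, and these groups overlapped. The stretched control had 3990.3, 3603 and 2564 FPKM, above every other library. The net log2 change of Nppb was 0.68 ± 0.39, not called (adjusted p 0.169), with a 95% interval of −0.16 to 1.52 that also does not show a return to the unstretched control. Without stretched Wnt5a siRNA replicate 3 the change was 1.06 and called (adjusted p 0.0433), without replicate 2 it was 0.36, and without unstretched control replicate 3 it was 0.45.

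Corin, the protease that cuts the precursor of atrial natriuretic peptide, fell to 1.86, 2.37 and 2.74 FPKM in stretched Wnt5a siRNA, against 18.2, 20.5 and 13.7 FPKM in unstretched control. The groups stood far apart (log2 change −2.47 ± 0.22, adjusted p 1.2e-05), and the stretched control was about as low at 3.13, 3.60 and 2.65 FPKM. The rise of Nppa and the fall of Corin were measured in the same libraries.

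Other genes of the fetal and contractile programme took different positions. Acta1, skeletal alpha-actin, which is part of the fetal gene programme of the loaded heart, had 106, 239 and 91.5 FPKM in stretched Wnt5a siRNA, against 704, 689 and 642 FPKM in unstretched control. All stretched Wnt5a siRNA libraries were below the unstretched control, with a log2 change of −2.35 ± 0.54 and an adjusted p of 0.00392. Acta1 had 1387, 1235 and 238 FPKM in the stretched control, with replicate 3 far below the other 2, and 196, 255 and 149.5 FPKM in unstretched Wnt5a siRNA. Acta1 was thus low in both groups that received the Wnt5a siRNA. Myh7, the beta-myosin heavy chain, had 1009, 1292 and 958 FPKM in stretched Wnt5a siRNA, against 846, 732 and 676 FPKM in unstretched control, and rose by a log2 change of 0.53 ± 0.13 (adjusted p 0.00624). Unstretched Wnt5a siRNA held the highest Myh7 levels, 1729, 1966 and 1446 FPKM.

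Of the YAP and TEAD targets among the readouts, Cyr61 ended below the unstretched control and Ctgf near it. Cyr61 (current symbol Ccn1), a secreted matricellular protein, had 138, 131 and 95.8 FPKM in stretched Wnt5a siRNA, against 203, 163 and 155 FPKM in unstretched control. These groups did not overlap, and the log2 change of −0.52 ± 0.18 was called (adjusted p 0.0317), but not without stretched Wnt5a siRNA replicate 3 (0.135) or unstretched control replicate 1 (0.121) or 2 (0.0529). Ctgf (current symbol Ccn2), connective tissue growth factor, had 773, 851 and 575 FPKM in stretched Wnt5a siRNA and 1031, 746 and 647 FPKM in unstretched control. The groups overlapped (log2 change −0.13 ± 0.22, adjusted p 0.656, 95% interval −0.61 to 0.35), while the stretched control had 2133, 1807 and 1293 FPKM, above all of them. Ankrd1, a titin-binding stress protein of the sarcomere, had 2904, 3431 and 2157 FPKM in stretched Wnt5a siRNA and 3587, 3294 and 2963 FPKM in unstretched control, which overlapped (log2 change −0.23 ± 0.22, adjusted p 0.411). A permutation test of the 6 libraries alone gave the smallest exact 2-sided p that 3 against 3 allows, 0.1, for Wnt5a, Yap1, Nppa, Acta1, Myh7 and Cyr61, against 0.3 for Nppb, 0.4 for Ankrd1 and 0.7 for Ctgf.

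The promoters of 4 of these readouts are shown because they hold the motif bound by TEAD factors, GGAATG on either strand (CATTCC on the other), which is in capitals. They run from upstream of the gene's start to shortly after it and come from RefSeq's table for the build GRCr8, which differs from the build rn6 that the submitters name. Acta1 also holds a CArG box, the motif of serum response factor, in capitals. Ctgf lies at chr1:22624565-22624864 and Acta1 at chr19:68784145-68784444, both on the minus strand. Cyr61 lies at chr2:237225640-237225939 on the minus strand and Nppb at chr5:163699758-163700057 on the plus strand.
Ctgf: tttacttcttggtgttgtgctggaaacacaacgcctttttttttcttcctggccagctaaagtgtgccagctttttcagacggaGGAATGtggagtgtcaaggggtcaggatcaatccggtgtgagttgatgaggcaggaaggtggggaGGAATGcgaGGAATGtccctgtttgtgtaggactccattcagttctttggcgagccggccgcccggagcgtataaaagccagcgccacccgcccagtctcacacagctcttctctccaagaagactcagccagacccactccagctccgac
Cyr61: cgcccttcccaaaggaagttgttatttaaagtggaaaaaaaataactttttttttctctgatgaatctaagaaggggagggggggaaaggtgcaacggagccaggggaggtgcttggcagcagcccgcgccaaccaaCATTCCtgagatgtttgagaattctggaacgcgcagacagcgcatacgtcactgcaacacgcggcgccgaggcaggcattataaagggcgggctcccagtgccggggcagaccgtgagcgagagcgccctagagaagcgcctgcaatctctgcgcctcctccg
Nppb: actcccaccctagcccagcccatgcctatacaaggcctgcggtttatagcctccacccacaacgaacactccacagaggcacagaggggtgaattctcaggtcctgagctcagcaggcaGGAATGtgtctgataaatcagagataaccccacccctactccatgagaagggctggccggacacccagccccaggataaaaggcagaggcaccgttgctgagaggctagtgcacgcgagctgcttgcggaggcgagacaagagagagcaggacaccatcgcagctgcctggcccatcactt
Acta1: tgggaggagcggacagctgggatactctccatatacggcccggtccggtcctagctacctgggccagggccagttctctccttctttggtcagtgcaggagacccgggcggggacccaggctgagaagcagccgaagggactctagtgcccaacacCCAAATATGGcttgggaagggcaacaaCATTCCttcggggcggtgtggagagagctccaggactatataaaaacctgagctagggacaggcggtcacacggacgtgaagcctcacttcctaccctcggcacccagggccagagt
Ctgf held 3 TEAD motifs, starting 166, 101 and 92 bases before the start site, Cyr61 held 1 at 113 bases, Nppb 1 at 131 bases and Acta1 1 at 67 bases. The CArG box of Acta1 starts 94 bases before its start site. Of 27457 promoters in the table, 13.9% held a TEAD motif and 1.64% a CArG box. The promoters of Nppa, Des, Actn1 and Wnt5a held neither motif in this window. These are matches of letters and not measured binding.

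**Figure D2:**
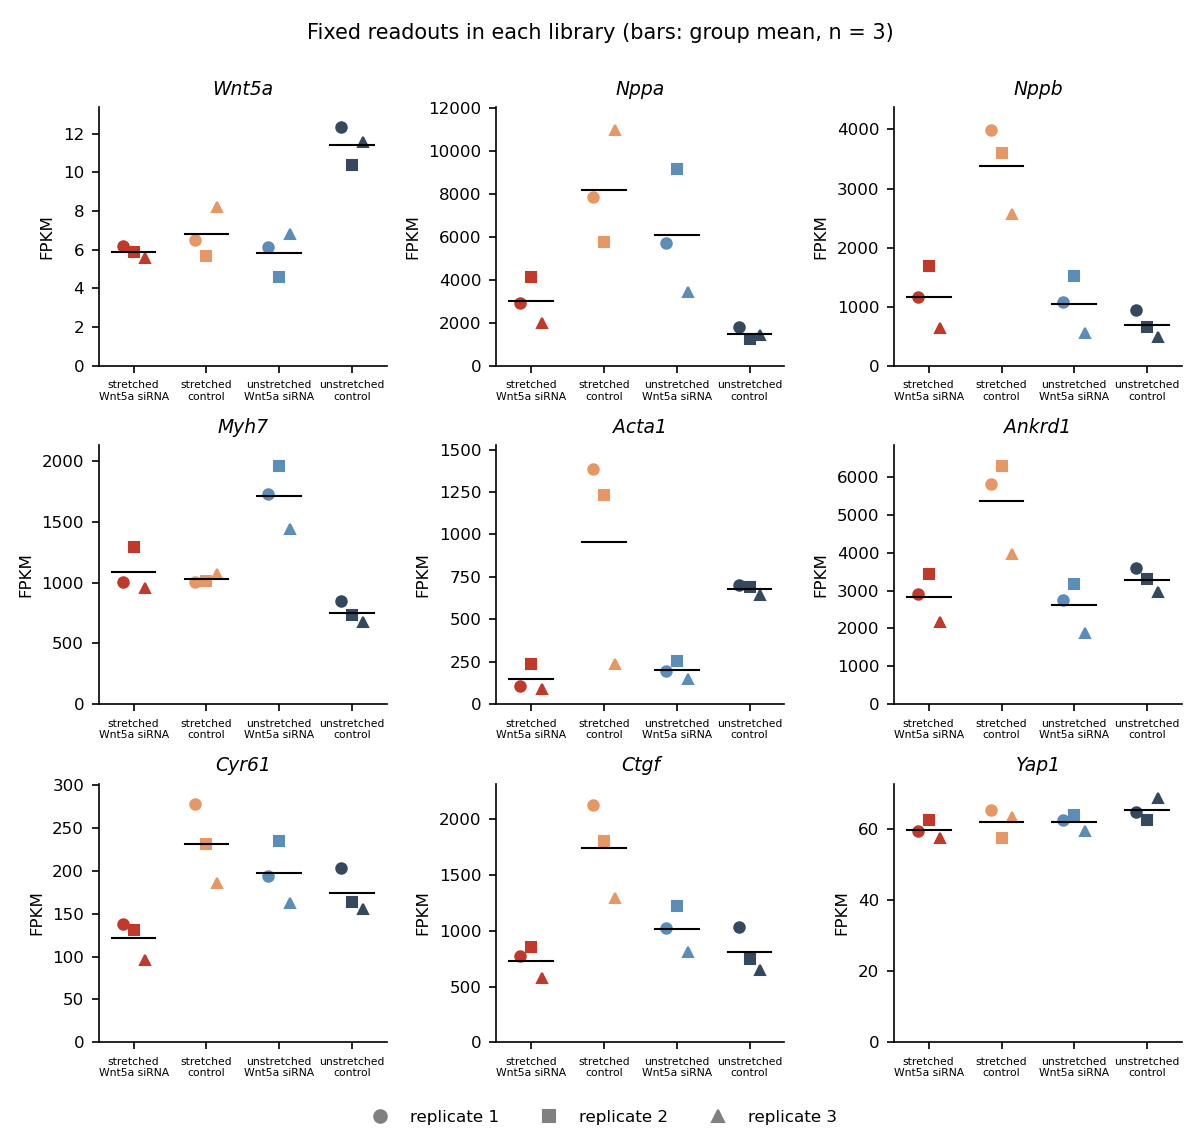
FPKM (y axis, from 0) of 9 readout genes in each of the 12 libraries, by group (x axis); symbols mark the replicate number and bars the mean of 3 libraries. Nppb and Ctgf are highest in the stretched control and overlap between stretched Wnt5a siRNA and unstretched control, while Acta1 is lower in both Wnt5a siRNA groups than in the unstretched control.

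Across all genes, stretched Wnt5a siRNA differed from the unstretched control in many genes, mostly by small amounts. The median absolute log2 change from the unstretched control was 0.26 in stretched Wnt5a siRNA, against 0.30 in the stretched control. Of 10518 tested genes, 4854 differed (46.1%), of which 2410 were higher (22.9%) and 2444 lower (23.2%), with a median log2 change of 0.0049 over all tested genes. At least a 2-fold change was seen in 500 genes (4.75%), 212 higher (2.02%) and 288 lower (2.74%). The libraries of both groups did not overlap in 6359 genes (60.5%), and the 95% interval of the change lay within 1.5-fold in 6191 genes (58.9%). With values scaled to the same sum in every library, which moves the median to −0.10, 1578 genes were higher and 3318 lower. Of the 500 genes changed at least 2-fold, 282 had also changed at least 2-fold in the stretched control, 82 of them higher and 200 lower. The other 218 had not, but 133 of them were called in the same direction there at under 2-fold. Of all tested genes, 6.9% had changed at least 2-fold in the stretched control, and 27.5% were called higher and 26.8% lower. Of the 218, 36 had changed at least 2-fold in the same direction in unstretched Wnt5a siRNA, 26 higher and 10 lower. Of all tested genes 1.55% had changed that far there, 0.637% higher and 0.913% lower. These comparisons share the unstretched control libraries and thus their noise, so the shared counts are a description with no test. Without stretched control replicate 3, 234 genes had changed at least 2-fold in both comparisons and 267 in stretched Wnt5a siRNA but not in the stretched control, with 161 of the 267 called the same way there at under 2-fold.

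H19, Casq1, Car3, Serpinf1 and Postn were among the genes with the largest rises. H19, an imprinted noncoding RNA of fetal tissue, had 132, 98.3 and 111 FPKM in stretched Wnt5a siRNA, against 12.5, 19.3 and 15.0 FPKM in unstretched control. This was 7.30 times the mean level (log2 change 2.80 ± 0.19, adjusted p 3.9e-06), and both the stretched control, 22.1, 27.7 and 30.8 FPKM, and unstretched Wnt5a siRNA, 35.9, 28.9 and 48.4 FPKM, lay well below. Casq1, the calsequestrin of skeletal muscle, had 96.7, 107 and 78.6 FPKM in stretched Wnt5a siRNA, against 11.6, 11.1 and 11.7 FPKM in unstretched control (log2 change 2.92 ± 0.34, adjusted p 4.4e-05). Its level in unstretched Wnt5a siRNA was 129.7, 114 and 110.2 FPKM, higher still, and in the stretched control it was 20.9, 21.4 and 72.1 FPKM, with replicate 3 far above the other 2. Car3, carbonic anhydrase 3, had 24.8, 18.2 and 24.2 FPKM in stretched Wnt5a siRNA, against 2.44, 3.61 and 3.50 FPKM in unstretched control (log2 change 2.48 ± 0.31, adjusted p 6.4e-05). Unstretched Wnt5a siRNA had 29.1, 15.0 and 32.6 FPKM and the stretched control 1.5, 3.47 and 4.86 FPKM, so Car3 was high in both groups with the Wnt5a siRNA.

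Serpinf1, the secreted pigment epithelium-derived factor, had 157, 147 and 164 FPKM in stretched Wnt5a siRNA, against 20.9, 26.4 and 29.5 FPKM in unstretched control (log2 change 2.57 ± 0.26, adjusted p 2.0e-05). Postn, periostin of the matrix, had 1579, 1518 and 1484 FPKM in stretched Wnt5a siRNA, against 311, 414 and 313 FPKM in unstretched control (log2 change 2.15 ± 0.29, adjusted p 1.1e-04). The stretched control had 607, 625 and 1667 FPKM of Postn, with replicate 3 alone at the level of the stretched Wnt5a siRNA libraries. Without that library, Casq1, Serpinf1 and Postn had not changed 2-fold in the stretched control. Postn is itself a fibroblast marker, and the summed fibroblast markers given above were higher in stretched Wnt5a siRNA; their part in these rises was not tested. Other large rises were Pcp4, a small calmodulin-binding protein (log2 change 2.69 ± 0.36), Lbp, the lipopolysaccharide-binding protein (2.39 ± 0.25), Scn3b, a beta subunit of sodium channels (2.2 ± 0.20), Fam180a (2.16 ± 0.30) and Sfrp4, a secreted antagonist of Wnt ligands (2.1 ± 0.25), with adjusted p of at most 1.3e-04.

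Cited1, Hfe2 and Myh11 were among the genes with the largest falls. Cited1, a transcriptional coregulator, fell to 23.0, 21.2 and 19.8 FPKM in stretched Wnt5a siRNA, against 153, 178 and 156 FPKM in unstretched control (log2 change −2.87 ± 0.45, adjusted p 3.4e-04). Hfe2, hemojuvelin, a coreceptor of bone morphogenetic proteins, fell to 0.964, 0.731 and 1.06 FPKM in stretched Wnt5a siRNA, against 11, 12.6 and 13.4 FPKM in unstretched control (−2.80 ± 0.30, adjusted p 2.9e-05). Myh11, the smooth muscle myosin heavy chain, fell to 7.25, 6.31 and 8.66 FPKM in stretched Wnt5a siRNA, against 55.5, 38.1 and 42.6 FPKM in unstretched control (−2.46 ± 0.18, adjusted p 5.4e-06). In none of these 3 genes did the libraries of the groups overlap. Myh11 is in the list of smooth muscle and pericyte markers, whose sum was lower too. Of the 13 markers of that list, however, 3 rose and 4 fell. Myl7, the atrial regulatory myosin light chain (−2.37 ± 0.46), Pdzd2 (−2.35 ± 0.18), Gnb3, a G protein beta subunit (−2.33 ± 0.39), Smoc2, a matricellular protein (−2.2 ± 0.29), and Olr59, an olfactory receptor gene (−2.13 ± 0.28), fell too. The highest adjusted p among these was that of Myl7, 0.00128.

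To say which genes were back at the unstretched control, the 726 genes that stretch with the control siRNA had changed at least 2-fold (6.9% of tested genes, 257 or 2.44% higher and 469 or 4.46% lower) were sorted by 3 contrasts. A gene was counted as returned where stretched Wnt5a siRNA differed from stretched control toward the unstretched control and the 95% interval of its net change lay within 1.5-fold. It was partly returned where it differed from both on the way between them, not returned where it still differed from the unstretched control with no called move toward it, and undecided otherwise. The contrasts share libraries, so these counts are a description with no test. Returned genes numbered 26 (3.58%), partly returned genes 276 (38.0%), not returned genes 326 (44.9%) and undecided genes 98 (13.5%). In limma, 0 of the 726 genes were called on the other side of the unstretched control; 14 lay there, of which 0 had an unadjusted p under 0.05.

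Among genes that stretch had raised, 15 of 257 were returned and 96 were not, and among genes it had lowered, 11 of 469 were returned and 230 were not; the difference between raised and lowered genes was not tested. Without stretched control replicate 3, 52 of 277 raised genes were returned and 62 were not, and 55 of 503 lowered genes were returned and 185 were not. The median of the partly returned raised genes was a log2 change of 0.71 in stretched Wnt5a siRNA, against 1.43 in the stretched control, and that of the partly returned lowered genes −0.76 in stretched Wnt5a siRNA, against −1.36 in the stretched control. Genes not returned had medians of 1.13 in stretched Wnt5a siRNA, against 1.18 in the stretched control, where stretch had raised them, and of −1.14 in stretched Wnt5a siRNA, against −1.31 in the stretched control, where it had lowered them. Each of these 8 medians moved by less than 0.1 without stretched control replicate 3. Of the 326 genes not returned, 10 lay further from the unstretched control in stretched Wnt5a siRNA than in the stretched control, as called in limma. Without stretched control replicate 3, 21 of 247 did. Between these groups limma called 27.3% of all tested genes, or 44.4% without stretched control replicate 3. Both percentages count calls in either direction. The class by its rule holds no called move toward the unstretched control, so its counts cannot be set against these percentages. The classes depend on the library that stood apart: without stretched control replicate 3, 107 genes were returned, 25 of them among the 26, 347 partly returned, 247 not returned and 4 on the other side. Leaving out stretched control replicate 1 or stretched Wnt5a siRNA replicate 3 gave 17 and 14 returned and 138 and 145 partly returned genes. Leaving out stretched Wnt5a siRNA replicate 1 or 2 gave 151 and 154 undecided genes. Scaling to the same sum per library returned 32 genes, of which 5 were among the 26.

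**Figure D3:**
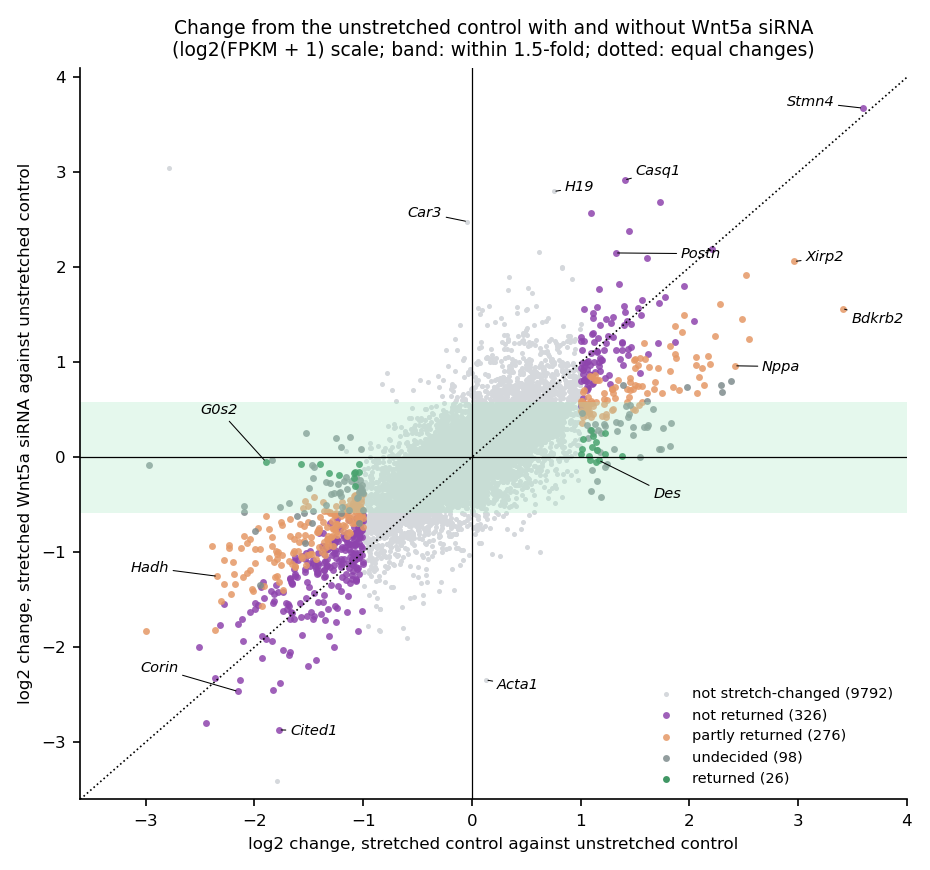
Log2 change against the unstretched control of stretched Wnt5a siRNA (y axis) and of stretched control (x axis) for each tested gene, on the log2(FPKM + 1) scale; colours give the class of the 726 genes changed at least 2-fold by stretch, the band is 1.5-fold around the unstretched control and the dotted line marks equal changes. The 326 genes not returned lie along the dotted line. The 276 partly returned lie between that line and no net change, some of them, such as Parp9, inside the band. Acta1, H19 and Car3 lie off the dotted line, among genes stretch had not changed at least 2-fold. In all, 3 genes lie outside the axes.

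Among the returned genes were 15 that stretch had raised. Des, desmin, the intermediate filament of muscle, had 494, 711 and 482 FPKM in stretched Wnt5a siRNA and 573, 542 and 584 FPKM in unstretched control, which overlapped, against 1578, 1088 and 1203 FPKM in the stretched control. Its net change was −0.032 ± 0.16 with a 95% interval of −0.39 to 0.32, and its difference from the stretched control −1.20 ± 0.16 (adjusted p 0.0016). Abhd2, a serine hydrolase, had 25.9, 30.4 and 24.4 FPKM in stretched Wnt5a siRNA and 31.1, 26.5 and 21.9 FPKM in unstretched control, against 83.6, 61.0 and 48.2 FPKM in the stretched control. Its net interval was −0.34 to 0.40 and its difference from the stretched control −1.20 ± 0.17 (adjusted p 0.00161). In both genes stretched Wnt5a siRNA overlapped the unstretched control and lay below all stretched control libraries. Actn1, non-muscle alpha-actinin, was also returned (net 0.074 ± 0.20), as were Csrnp1, a nuclear protein of the early response (net 0.017 ± 0.24), and Kif5b, a kinesin heavy chain (net 0.26 ± 0.13).

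Of genes that stretch had lowered, G0s2, an inhibitor of fat breakdown, had 139.5, 127 and 144 FPKM in stretched Wnt5a siRNA and 111, 154 and 164 FPKM in unstretched control, against 27.2, 38.8 and 48.5 FPKM in the stretched control. Its net interval was −0.44 to 0.35, and its difference from the stretched control was 1.85 ± 0.18 (adjusted p 3.0e-04). Nme4, a nucleoside diphosphate kinase of mitochondria, had 11.5, 9.16 and 11.5 FPKM in stretched Wnt5a siRNA and 10.9, 12 and 10.9 FPKM in unstretched control, against 3.07, 3.78 and 4.15 FPKM in the stretched control, with a net interval of −0.32 to 0.18. Both genes overlapped the unstretched control and lay above every stretched control library. Smtnl2 (net −0.073 ± 0.18), Popdc3, a Popeye domain membrane protein (net −0.19 ± 0.17), and Bmf, which promotes apoptosis (net −0.17 ± 0.16), were returned too. The other 16 were Cfl2, Coq10b, Egr2, Gclc, Ier2, Ifrd1, Murc, Pgf, Thbs1 and Tuba4a, which stretch had raised, and Cacna1g, Ccdc85a, Nkd1, Smarca2, Smim8 and Usp18, which it had lowered; they are named to complete the class. Class membership held in 21 of 22 alternatives for Abhd2 and Nme4, 20 for G0s2, 19 for Des and Smtnl2, 17 for Kif5b and Bmf, 15 for Actn1, 14 for Csrnp1 and 12 for Popdc3. Without unstretched control replicate 1, G0s2, Kif5b, Actn1, Csrnp1, Popdc3 and Bmf were undecided. With stretched Wnt5a siRNA replicate 3 left out, Actn1, Csrnp1, Popdc3 and Bmf were undecided and Kif5b was partly returned; without replicate 1 of that group, Kif5b, Actn1, Csrnp1 and Popdc3 were undecided. With stretched Wnt5a siRNA replicate 2 or unstretched control replicate 3 left out, Csrnp1 was undecided, without unstretched control replicate 2, Csrnp1 and Popdc3, and without unstretched Wnt5a siRNA replicate 1, Popdc3. Without stretched control replicate 1, Actn1 had not changed 2-fold with stretch.

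Partly returned genes kept a share of the stretch change. Bdkrb2, the B2 bradykinin receptor, had 5.88, 9.48 and 3.08 FPKM in stretched Wnt5a siRNA, against 1.45, 1.45 and 0.885 FPKM in unstretched control (net 1.57 ± 0.31, adjusted p 0.00151). The stretched control was higher than both at 31.4, 17.6 and 21.7 FPKM. Il1rl1, the interleukin 33 receptor ST2, had 73.2, 89.9 and 51.6 FPKM in stretched Wnt5a siRNA, against 32.8, 20.7 and 22.2 FPKM in unstretched control (net 1.46 ± 0.20, adjusted p 1.4e-04), and 158, 162 and 115 FPKM in the stretched control. In both genes the stretched Wnt5a siRNA libraries lay between the other groups, with no overlap with either. Ramp3, a partner of the calcitonin receptor-like receptor, kept a net change of 1.25 ± 0.24, against 2.55 in the stretched control. Xirp2, an actin-binding protein of muscle, kept 2.06 ± 0.25, against 2.97, and Tnc, tenascin C of the matrix, 1.92 ± 0.18, against 2.52. Both were counted as not returned without stretched Wnt5a siRNA replicate 1 or 3 or stretched control replicate 1, and Tnc also without stretched control replicate 3 and after either other scaling.

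Hadh, a beta-oxidation dehydrogenase, had 21.1, 23.4 and 28.4 FPKM in stretched Wnt5a siRNA, against 50.5, 59.8 and 67.4 FPKM in unstretched control (net −1.25 ± 0.20, adjusted p 3.0e-04). The stretched control was lower at 7.95, 11.1 and 14.2 FPKM and did not overlap stretched Wnt5a siRNA. Frem2, a basement membrane protein, kept a net change of −0.93 ± 0.21, against −2.39 in the stretched control, and Epha4, an ephrin receptor, −1.52 ± 0.17, against −2.31. Smim5 kept −1.83 ± 0.19, against −3.00, and the kinase Wnk2 −1.82 ± 0.14, against −2.37. Wnk2 was counted as not returned without stretched Wnt5a siRNA replicate 3 or stretched control replicate 1. For Bdkrb2, Il1rl1, Ramp3, Hadh, Frem2, Epha4 and Smim5 the class was the same in all 22 alternatives.

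Genes counted as not returned had no called move toward the unstretched control, which does not show that each kept its whole stretch change. Fibin had 95.3, 98.3 and 99.3 FPKM in stretched Wnt5a siRNA, against 29.1, 25.5 and 27.3 FPKM in unstretched control, with 108, 105 and 112 FPKM in the stretched control (net 1.80 ± 0.060, adjusted p 5.7e-09). Its difference from the stretched control was −0.15, with a 95% interval of −0.28 to −0.020. Scn3b had 20.3, 24.6 and 14 FPKM in stretched Wnt5a siRNA, against 4.51, 2.60 and 3.29 FPKM in unstretched control, and 18.6, 18.3 and 21.3 FPKM in the stretched control. Its difference from the stretched control was −0.014 (−0.44 to 0.41), and in both genes the stretched groups were several times the unstretched control. Ttc9 kept a net change of 1.69 ± 0.16 and F2rl1, the protease-activated receptor 2, of 1.21 ± 0.26, partly returned without stretched Wnt5a siRNA replicate 2 or stretched control replicate 3. Of genes that stretch had lowered, Rxrg, the retinoid X receptor gamma, kept −1.76 ± 0.24 and Tmem179 −1.99 ± 0.29. Atp6ap1l kept −1.55 ± 0.30 and was partly returned without unstretched Wnt5a siRNA replicate 2 or 3. Rxrg and Tmem179 were partly returned with a pseudocount of 0.1, and Rxrg and F2rl1 with a block for the replicate number. Hfe2 and Gnb3, also not returned, are among the largest falls given above.

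The undecided genes included several with a called move toward the unstretched control whose distance from it could not be fixed. Hbegf, a heparin-binding growth factor, had 30.7, 46.7 and 21.7 FPKM in stretched Wnt5a siRNA and 22.8, 17.3 and 15.3 FPKM in unstretched control, against 117, 119.5 and 58.4 FPKM in the stretched control. Stretched Wnt5a siRNA overlapped the unstretched control and lay below the stretched control, with a net change of 0.76 ± 0.31 (adjusted p 0.0623, interval 0.085 to 1.43). Without stretched Wnt5a siRNA replicate 3 or stretched control replicate 3 it was partly returned. Noct, a regulator of circadian output, had 2.70, 3.29 and 2.05 FPKM in stretched Wnt5a siRNA and 2.34, 2.46 and 2.31 FPKM in unstretched control, against 18.6, 11.7 and 5.81 FPKM in the stretched control, and its net interval was −0.52 to 0.75; without stretched control replicate 3 it was returned. Nppb and Ctgf belong here as well, but Nppb was not returned without stretched Wnt5a siRNA replicate 3, and Ctgf was returned without stretched Wnt5a siRNA replicate 3, stretched control replicate 3 or unstretched control replicate 1 and had not changed 2-fold with stretch without stretched control replicate 1 or unstretched control replicate 3.

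**Figure D4:**
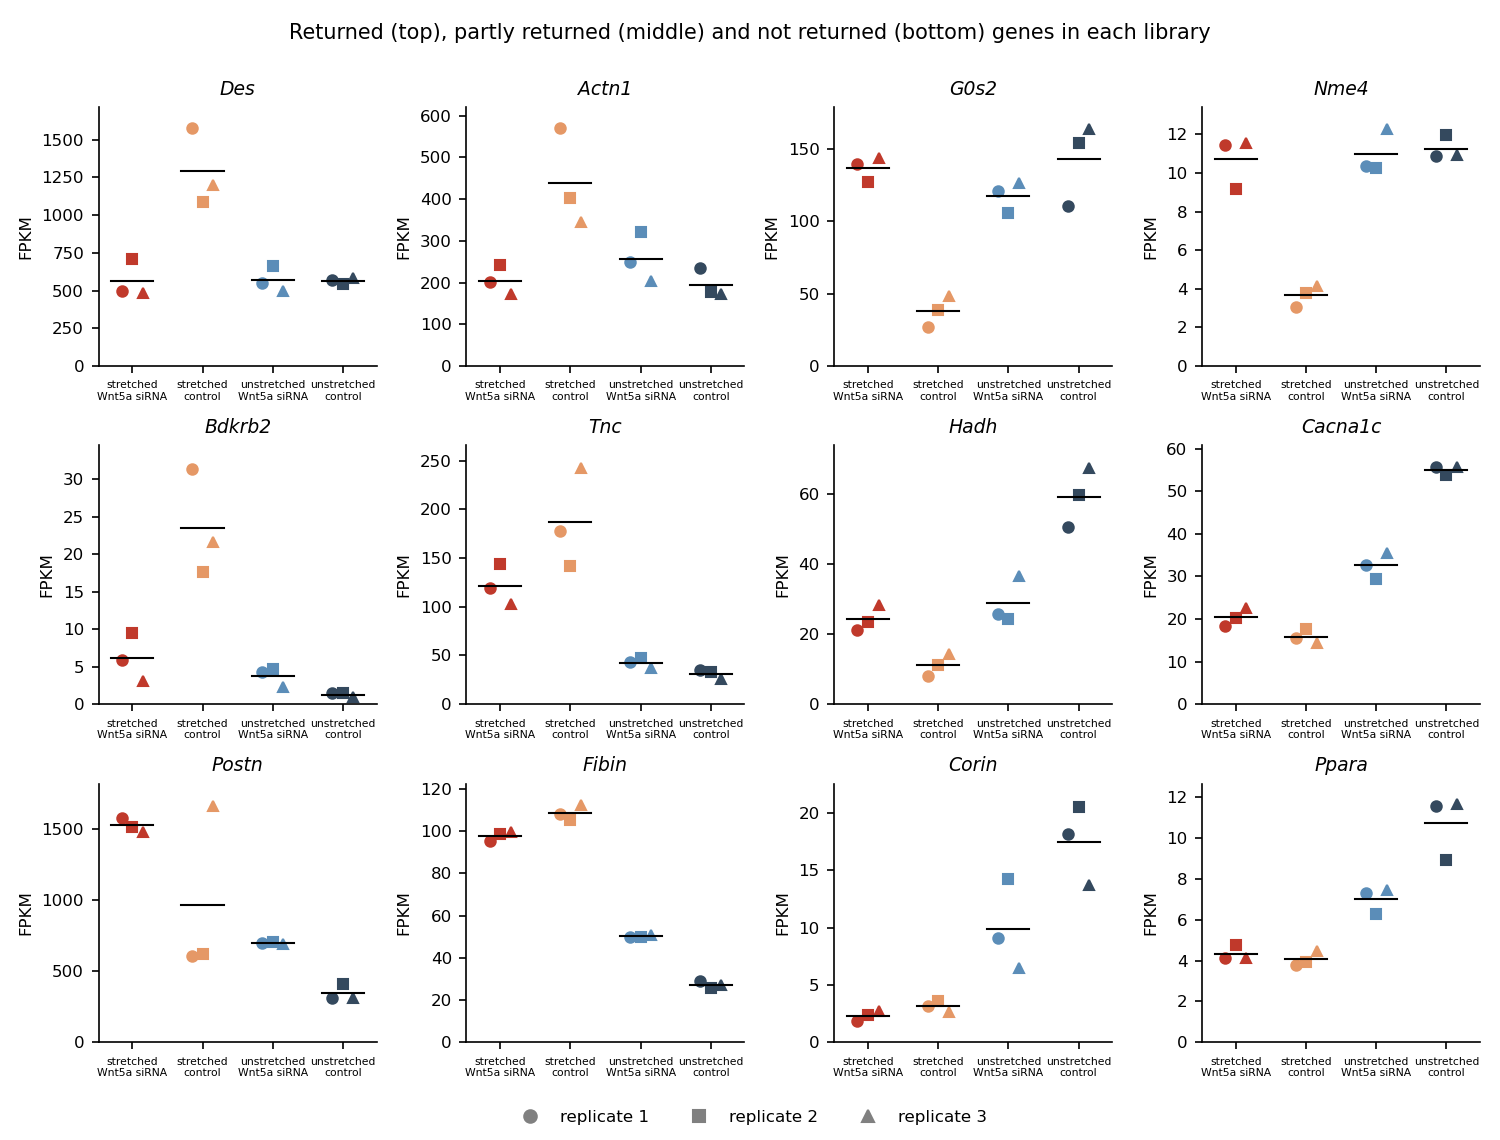
FPKM (y axis, from 0) of 12 genes in each of the 12 libraries, by group (x axis), 4 returned genes in the top, 4 partly returned in the middle and 4 not returned in the bottom panels; symbols mark the replicate number and bars the mean of 3 libraries. Des and Nme4 overlap the unstretched control in stretched Wnt5a siRNA, Hadh lies between the control siRNA groups, and Fibin stays near the stretched control.

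Gene groups by function differed in how far they were from the unstretched control. The counts below are members called out of members tested, and for all tested genes they were 22.9% higher and 23.2% lower in stretched Wnt5a siRNA, and 54.3% in the stretched control, 27.5% higher and 26.8% lower (29.2% and 28.1% without its replicate 3). In unstretched Wnt5a siRNA 28.5% were called, 14.6% higher and 13.9% lower. After scaling to the same sum per library the stretched control had 1455 genes higher and 4502 lower, with a median of −0.20. Both comparisons share the unstretched control libraries, so their counts are set side by side and not tested against each other.

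Immediate early genes, which most often rose in the stretched control, were called in stretched Wnt5a siRNA about as often as all genes. Of 33 immediate early genes, 8 were higher and 5 lower in stretched Wnt5a siRNA (median log2 change 0.091), against 27 higher and 1 lower in the stretched control (median 0.73; 31 and 1 without its replicate 3). The net counts moved to 11 higher and 10 lower without stretched control replicate 3, and to 4, 5 and 4 higher without stretched Wnt5a siRNA replicate 1 or 2 or unstretched control replicate 3. The net interval lay within 1.5-fold in 10 of the 33. Members did not move as a group: Klf4, a transcription factor, rose to 36.2, 38.8 and 35.2 FPKM in stretched Wnt5a siRNA, against 18.6, 18.2 and 16.6 FPKM in unstretched control (1.0 ± 0.094, adjusted p 1.4e-05), and Klf2 rose by 0.77 ± 0.086. Dusp5, a phosphatase of ERK, fell to 8.96, 9.68 and 10.4 FPKM in stretched Wnt5a siRNA, against 19.9, 24.1 and 23.0 FPKM in unstretched control (−1.12 ± 0.12, adjusted p 3.3e-05), and the orphan receptor gene Nr4a1 fell by 0.62 ± 0.13. Heat shock genes of the cytosol had 8 of 25 higher and 4 lower (median 0.0064), against 17 higher in the stretched control (21 without its replicate 3); the net counts were 5 higher and 7 lower after scaling to the same sum. Without stretched Wnt5a siRNA replicate 2 or unstretched control replicate 2, 5 were higher, and without stretched Wnt5a siRNA replicate 3 or unstretched control replicate 3, 2 were lower. Stip1, an Hsp70 and Hsp90 cochaperone, rose by 0.56 ± 0.075 and Dnaja4, a DnaJ protein, fell by 0.97 ± 0.10.

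Contractile and cytoskeletal genes were mostly below the unstretched control. Of 25 target genes of serum response factor and its cofactor MRTF, 15 fell and 3 rose (median −0.37), against 6 lower and 7 higher in the stretched control (median 0.077). Without stretched Wnt5a siRNA replicate 3, 9 fell, without unstretched control replicate 2, 1 rose, and without stretched control replicate 3, 11 were higher and 6 lower in the stretched control. Tpm2, beta-tropomyosin, fell to 552, 540.2 and 544 FPKM in stretched Wnt5a siRNA, against 1213, 975 and 1118 FPKM in unstretched control (−1.01 ± 0.12, adjusted p 5.0e-05). The stretched control had 953, 814 and 724 FPKM, between them, and the groups did not overlap. Mylk, the smooth muscle myosin light chain kinase (−1.17 ± 0.092), and Lmod1, a leiomodin (−1.46 ± 0.14), fell too. Of 24 sarcomere and Z-disc genes, 14 fell and 3 rose (median −0.43), against 9 lower and 9 higher in the stretched control (8 and 9 without its replicate 3); 5 were higher there without stretched control replicate 1, and 3 after either other scaling. Myh6, the alpha-myosin heavy chain, fell to 831, 1117 and 1056 FPKM in stretched Wnt5a siRNA, against 3439, 3631 and 3985 FPKM in unstretched control (−1.89 ± 0.28, adjusted p 2.1e-04). Tmod1, which caps thin filaments (−0.82 ± 0.086), Ldb3, a Z-disc protein (−1.04 ± 0.15), and Myom1 of the M band (−0.83 ± 0.12) fell as well. The summed cardiomyocyte markers were lower in the same libraries. Myh6 and Myom1 are themselves among these markers, so for them the sum is no separate measure. The part of a change in cell types in these falls was not tested.

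YAP and TAZ target genes held no common direction. Of 22, 5 rose and 7 fell (median 0.067), against 10 higher and 3 lower in the stretched control. Without stretched Wnt5a siRNA replicate 1 or 2, 3 and 4 fell, without unstretched control replicate 1 or 3, 2 and 4 fell, and without stretched control replicate 3, 11 were higher and 5 lower in the stretched control. Crim1, a membrane protein that binds growth factors, fell by 1.12 ± 0.13 (adjusted p 3.8e-05), Axl, a receptor kinase, rose by 0.54 ± 0.073 (adjusted p 1.1e-04), Myof, myoferlin, rose by 0.45 ± 0.089 and Igfbp3, which binds insulin-like growth factors, by 0.89 ± 0.21. Of 19 components of the Hippo pathway, 8 fell and 1 rose (median −0.13). These included the TEAD factors Tead1 (−0.45 ± 0.085) and Tead3 (−0.67 ± 0.14), the YAP competitor Vgll4 (−0.54 ± 0.080) and the upstream regulator Nf2 (−0.40 ± 0.079), all called. Integrin and focal adhesion genes had 5 of 22 higher and 7 lower (median −0.14), against 12 higher and 3 lower in the stretched control (14 and 2 without its replicate 3). Vcl, vinculin of the adhesion plaque, fell to 177, 195 and 166 FPKM in stretched Wnt5a siRNA, against 380.3, 324 and 315 FPKM in unstretched control (−0.92 ± 0.13), and Lims2, an adapter of integrin-linked kinase, fell by 1.48 ± 0.20. In this group 2 were higher without stretched Wnt5a siRNA replicate 1 or 2 or unstretched control replicate 2 or 3, 4 lower without unstretched control replicate 2, and 1 higher and 10 lower after scaling to the same sum. In the stretched control 1 was lower without unstretched control replicate 1.

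Most genes of fatty acid use were lower. Of 29 genes of fatty acid uptake and oxidation, 26 fell (median −0.84), against 27 in the stretched control (median −0.94; 28 without its replicate 3) and 26 in unstretched Wnt5a siRNA. Ppara, the nuclear receptor that drives fat oxidation genes, fell to 4.12, 4.75 and 4.15 FPKM in stretched Wnt5a siRNA, against 11.5, 8.94 and 11.7 FPKM in unstretched control (−1.13 ± 0.11, adjusted p 2.0e-05), and 3.77, 3.95 and 4.47 FPKM in the stretched control. The stretched groups overlapped and lay below the unstretched control. Pdk4, a pyruvate dehydrogenase kinase (−1.54 ± 0.17), Mlycd, malonyl-CoA decarboxylase (−1.22 ± 0.14), and Slc25a20, the carnitine-acylcarnitine carrier (−1.05 ± 0.12), fell in the same way. Of 13 members of this list that stretch had lowered at least 2-fold, 5 were partly returned and 8 not returned. Of all 469 genes that stretch had lowered so far, 37.1% were partly returned and 49.0% not returned. Without stretched control replicate 3, 4 of 10 members were partly returned and 6 not returned, and Slc25a20 was not among the 10. The 14 cardiomyocyte markers summed to 22145.9 to 30599.9 FPKM in these stretched Wnt5a siRNA libraries, against 32818 to 35978 FPKM in unstretched control, and the 16 fibroblast markers to 9060.1 to 9656 FPKM, against 3629 to 4146 FPKM. The part of these shifts in the changes of genes of energy supply was not tested.

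Most nuclear genes of oxidative phosphorylation fell. In stretched Wnt5a siRNA 31 of 35 fell (median −0.42), against 17 in the stretched control (median −0.19) and 31 in unstretched Wnt5a siRNA. The count in the stretched control is unsteady, at 26 without stretched control replicate 2, 15 without replicate 3, 9 without unstretched control replicate 3 and 33 after either other scaling. Ndufa4 of the respiratory chain fell to 280.0, 268 and 233 FPKM in stretched Wnt5a siRNA, against 577, 580.0 and 606 FPKM in unstretched control (−1.17 ± 0.081, adjusted p 4.1e-06). The stretched control, 509.9, 572 and 473 FPKM, was near the unstretched control, and unstretched Wnt5a siRNA was lowest at 183, 187 and 186 FPKM. Ndufs1 of complex I (−0.64 ± 0.082) and the ATP synthase subunit genes Atp5b (−0.86 ± 0.14) and Atp5c1 (−0.58 ± 0.090) fell. Of 25 genes of the TCA cycle and branched-chain amino acid breakdown, 21 fell (median −0.44), against 18 in the stretched control (17 without its replicate 3). Ogdh of oxoglutarate dehydrogenase (−0.73 ± 0.065), Dlat of pyruvate dehydrogenase (−0.66 ± 0.084) and Idh2, mitochondrial isocitrate dehydrogenase (−1.10 ± 0.17), fell. Glycolysis and glucose transport had 9 of 25 lower and 3 higher (median −0.11), against 12 and 6 in the stretched control (9 and 7 without its replicate 3). Pfkm, muscle phosphofructokinase, fell to 55.6, 54.6 and 70.9 FPKM in stretched Wnt5a siRNA, against 128, 149 and 161 FPKM in unstretched control (−1.26 ± 0.16), and was partly returned from the 26.8, 40.0 and 33.7 FPKM of the stretched control. Pgam2, muscle phosphoglycerate mutase, fell by 2.11 ± 0.31. Of 15 genes of creatine kinase and energy transfer, 10 fell and 1 rose (median −0.37), against 9 and 2 in the stretched control, with or without its replicate 3. Ckm, muscle creatine kinase and also a cardiomyocyte marker (−1.70 ± 0.26), and Ckb, brain creatine kinase (−0.66 ± 0.089), fell.

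Genes of ion channels and connexins were mostly lower too. Of 21 genes of sodium, potassium and pacemaker channels and connexins, 15 fell (median −0.70), as many as in the stretched control (median −0.76; 17 without its replicate 3). Gja1, connexin 43 of the gap junctions, fell to 159, 181 and 172 FPKM in stretched Wnt5a siRNA, against 484, 529 and 518 FPKM in unstretched control (−1.58 ± 0.12, adjusted p 5.6e-06). The stretched control had 348, 386 and 259 FPKM and unstretched Wnt5a siRNA 186, 173 and 203 FPKM, so both groups with the Wnt5a siRNA lay below both groups with the control siRNA. Kcnj11 (−1.54 ± 0.12) and Abcc8 (−1.89 ± 0.15), subunits of ATP-sensitive potassium channels, and Kcnd3, of the transient outward current (−1.57 ± 0.15), fell. Of 20 calcium handling genes, 12 fell and 3 rose (median −0.66), against 10 and 4 in the stretched control. The 3 higher became 1 without stretched Wnt5a siRNA replicate 1 or unstretched control replicate 3, and the 4 became 2 (with 11 lower) without stretched control replicate 3, and 2 without unstretched control replicate 1 or 3. Cacna1c, the L-type calcium channel, fell to 18.3, 20.3 and 22.5 FPKM in stretched Wnt5a siRNA, against 55.6, 53.8 and 55.8 FPKM in unstretched control (−1.40 ± 0.094, adjusted p 3.8e-06), and 15.6, 17.6 and 14.4 FPKM in the stretched control. Ryr2, the calcium release channel (−1.36 ± 0.13), and Hrc, a calcium-binding protein of the reticulum (−1.53 ± 0.18), fell. Of 27 adrenergic and G protein signalling genes, 13 fell and 4 rose (median −0.40), against 15 and 5 in the stretched control (14 and 5 without its replicate 3). Adrb1, the main cardiac beta-adrenergic receptor, fell to 8.46, 8.01 and 8.86 FPKM in stretched Wnt5a siRNA, against 16.6, 19.4 and 19.2 FPKM in unstretched control (−1.03 ± 0.086, adjusted p 8.0e-06). Of 22 cardiac transcription factors, 12 fell (median −0.42), against 13 in the stretched control (12 without its replicate 3). They included Tbx5 (−1.11 ± 0.091), Prox1 (−1.14 ± 0.10), Mef2d (−0.79 ± 0.074) and Irx3 (−0.92 ± 0.12). The lower cardiomyocyte and higher fibroblast marker sums given above were measured in the same libraries, and Ryr2 is itself a cardiomyocyte marker. The part of a change in cell types in these falls was not tested.

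Genes of the matrix were higher. Of 13 collagen genes, 12 rose (median 0.87), against 13 in the stretched control (median 0.55), where the count was 11 without replicate 3 and 6 and 7 after the other scalings. Col1a1, the main fibrillar collagen chain, had 3353, 3106 and 3521 FPKM in stretched Wnt5a siRNA, against 1578, 1645 and 1603 FPKM in unstretched control (1.05 ± 0.14, adjusted p 1.2e-04), and 1953, 1870.1 and 3007 FPKM in the stretched control. The stretched Wnt5a siRNA libraries were all above every other library of these groups. Col3a1 rose by 1.47 ± 0.17, Col5a1 by 0.87 ± 0.10 and Col11a1 by 1.79 ± 0.18. Of 28 other matrix genes, 20 rose and 1 fell (median 0.69), against 22 higher in the stretched control (20 without its replicate 3). Spp1, osteopontin, rose to 307, 295 and 304 FPKM in stretched Wnt5a siRNA, against 90.9, 127 and 112 FPKM in unstretched control (1.47 ± 0.14, adjusted p 1.6e-05), Mmp2, a matrix protease, by 0.99 ± 0.089 and Loxl1, which crosslinks elastin, by 1.13 ± 0.091. Collagens are made chiefly by fibroblasts. The 16 fibroblast markers summed to 9060.1 to 9656 FPKM in stretched Wnt5a siRNA, against 3629 to 4146 FPKM in unstretched control. Col1a1, Col1a2, Col3a1, Col14a1 and Postn are themselves among these markers, so that sum is in part the same transcripts and no separate measure. The part of a change in cell types in these rises was not tested.

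Signals between cells moved in both directions. Of 22 response genes of TGF-beta and BMP, 12 rose and 2 fell (median 0.49), against 17 and 2 in the stretched control (median 0.93; the same counts without its replicate 3). Ltbp2, which binds microfibrils, rose by 1.26 ± 0.13, Id2 by 0.74 ± 0.11 and Gdf6, a BMP ligand, by 1.08 ± 0.17. Tgfb3, a TGF-beta ligand, fell to 67.6, 64.5 and 62.8 FPKM in stretched Wnt5a siRNA, against 276, 197 and 208 FPKM in unstretched control (−1.77 ± 0.21, adjusted p 5.5e-05), and the stretched control lay between them. Of 31 growth factors and peptides, 12 rose and 7 fell (median 0.41), against 13 and 9 in the stretched control (13 and 8 without its replicate 3). Igf1 rose to 38.4, 39.9 and 45.6 FPKM in stretched Wnt5a siRNA, against 12.5, 16.9 and 16.2 FPKM in unstretched control (1.39 ± 0.20, adjusted p 1.6e-04), above the 18.9, 19.3 and 32.9 FPKM of the stretched control, and Igf2 rose by 1.13 ± 0.16. Pdgfa, a ligand of the platelet-derived growth factor receptors (−0.74 ± 0.10), and Ramp1, a partner of the receptor for calcitonin gene-related peptide (−0.95 ± 0.18), fell. Of 18 inflammatory and NF-kB target genes, 5 rose and 5 fell (3 without stretched Wnt5a siRNA replicate 1), with a median of 0.059, against 8 and 2 in the stretched control (10 and 1 without its replicate 3). Csf1, a macrophage growth factor, rose by 0.69 ± 0.10 and the chemokine Ccl2 by 0.57 ± 0.12, while the adhesion molecule Vcam1 fell by 1.01 ± 0.15.

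Of 27 Wnt ligands, receptors and planar polarity genes, 5 rose and 6 fell, and Wnt5a was among those that fell (median −0.074), against 9 and 4 in the stretched control (7 and 4 without its replicate 3); 4 rose and 12 fell after scaling to the same sum, and 2 were lower in the stretched control without unstretched control replicate 1. Dvl2, a transducer of Wnt signals, rose by 0.46 ± 0.076, and Gpc4, a glypican, fell by 0.75 ± 0.13. Of 17 targets of beta-catenin and antagonists of Wnt ligands, 6 rose and 5 fell (median 0.17), and 3 fell without stretched Wnt5a siRNA replicate 2 or 3 or unstretched control replicate 1. Ccnd1, cyclin D1, rose to 95.4, 117 and 77.4 FPKM in stretched Wnt5a siRNA, against 36.5, 38.1 and 33.3 FPKM in unstretched control (1.38 ± 0.12, adjusted p 1.1e-05), and was partly returned from 128, 129 and 146 FPKM in the stretched control. The antagonist Frzb rose by 1.12 ± 0.14 and Dkk3 fell by 0.52 ± 0.067.

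Most genes of the ribosome, the ATF4 and tRNA synthetase list and the unfolded protein response were higher. All 34 tested ribosomal protein genes rose (median 0.76), as they did in the stretched control, with or without its replicate 3 (median 0.54), although reads shared with their pseudogenes make single members uncertain. In every one the net change was larger than the change in the stretched control. Rpl28 had 352, 315 and 313 FPKM in stretched Wnt5a siRNA, against 182, 191 and 184 FPKM in unstretched control (0.81 ± 0.067, adjusted p 8.0e-06), and 262, 246 and 281 FPKM in the stretched control. Of 27 ATF4 targets and tRNA synthetases, 22 rose (median 0.69), against 18 in the stretched control (16 without its replicate 3). Nars, an asparagine tRNA synthetase, rose by 0.69 ± 0.066 and Slc3a2, a subunit of amino acid transporters, by 0.63 ± 0.064. Of 26 genes of the unfolded protein response, 21 rose (median 0.58), against 23 in the stretched control (median 0.73; 24 without its replicate 3), among them the transcription factor Atf4 (0.52 ± 0.060), Dnajc3 (0.77 ± 0.084) and P4hb, a protein disulfide isomerase (0.58 ± 0.064). Of 26 proteasome genes, 21 rose (median 0.25), against 24 in the stretched control (25 without its replicate 3), and after scaling to the same sum 10 rose, against 12 in the stretched control. The 1 member that fell was not called in 9 of 12 fits that left out 1 library. The changes were small, as for Psmd1 (0.39 ± 0.060) and Psma2 (0.44 ± 0.072), and in 25 of the 26 the net interval lay within 1.5-fold. The 27 genes listed under cholesterol synthesis also include genes of fatty acid synthesis. In this list 10 rose (median 0.39), or 16 without stretched control replicate 3 and 6 without stretched Wnt5a siRNA replicate 2 or unstretched control replicate 3. In the stretched control 14 of the 27 rose, or 11 without its replicate 3. Fasn, fatty acid synthase, rose by 0.62 ± 0.12 and Srebf1, a regulator of lipid synthesis, by 0.93 ± 0.17.

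Of 40 cell cycle genes, 30 rose and 1 fell (median 0.49), against 10 and 3 in the stretched control (median 0.17) and 33 and 2 in unstretched Wnt5a siRNA. The 10 became 6 (and the 3 became 2) without stretched control replicate 3, 6 without unstretched control replicate 2 and 5 without unstretched control replicate 3. Pcna, the clamp of replication, had 94.5, 83.8 and 85.4 FPKM in stretched Wnt5a siRNA, against 57.1, 60.3 and 57.2 FPKM in unstretched control (0.59 ± 0.072, adjusted p 6.4e-05), and 78.7, 89.5 and 81.9 FPKM in unstretched Wnt5a siRNA. Mcm3 of the replicative helicase rose by 0.81 ± 0.12 and the cell cycle inhibitor Cdkn2b by 1.5 ± 0.14. Interferon response genes had 4 of 31 higher and 6 lower (median −0.052), against 1 higher and 20 lower in the stretched control (median −0.58; 1 and 19 without its replicate 3). Parp9 had 15.5, 16.0 and 14.6 FPKM in stretched Wnt5a siRNA, 8.72, 10.5 and 10.9 FPKM in the stretched control and 20.6, 22.6 and 20.5 FPKM in unstretched control (net −0.44 ± 0.087), and it was partly returned. Ifit2 and Ifitm3, which restrict viruses, rose by 1.01 ± 0.14 and 0.75 ± 0.093.

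**Figure D5:**
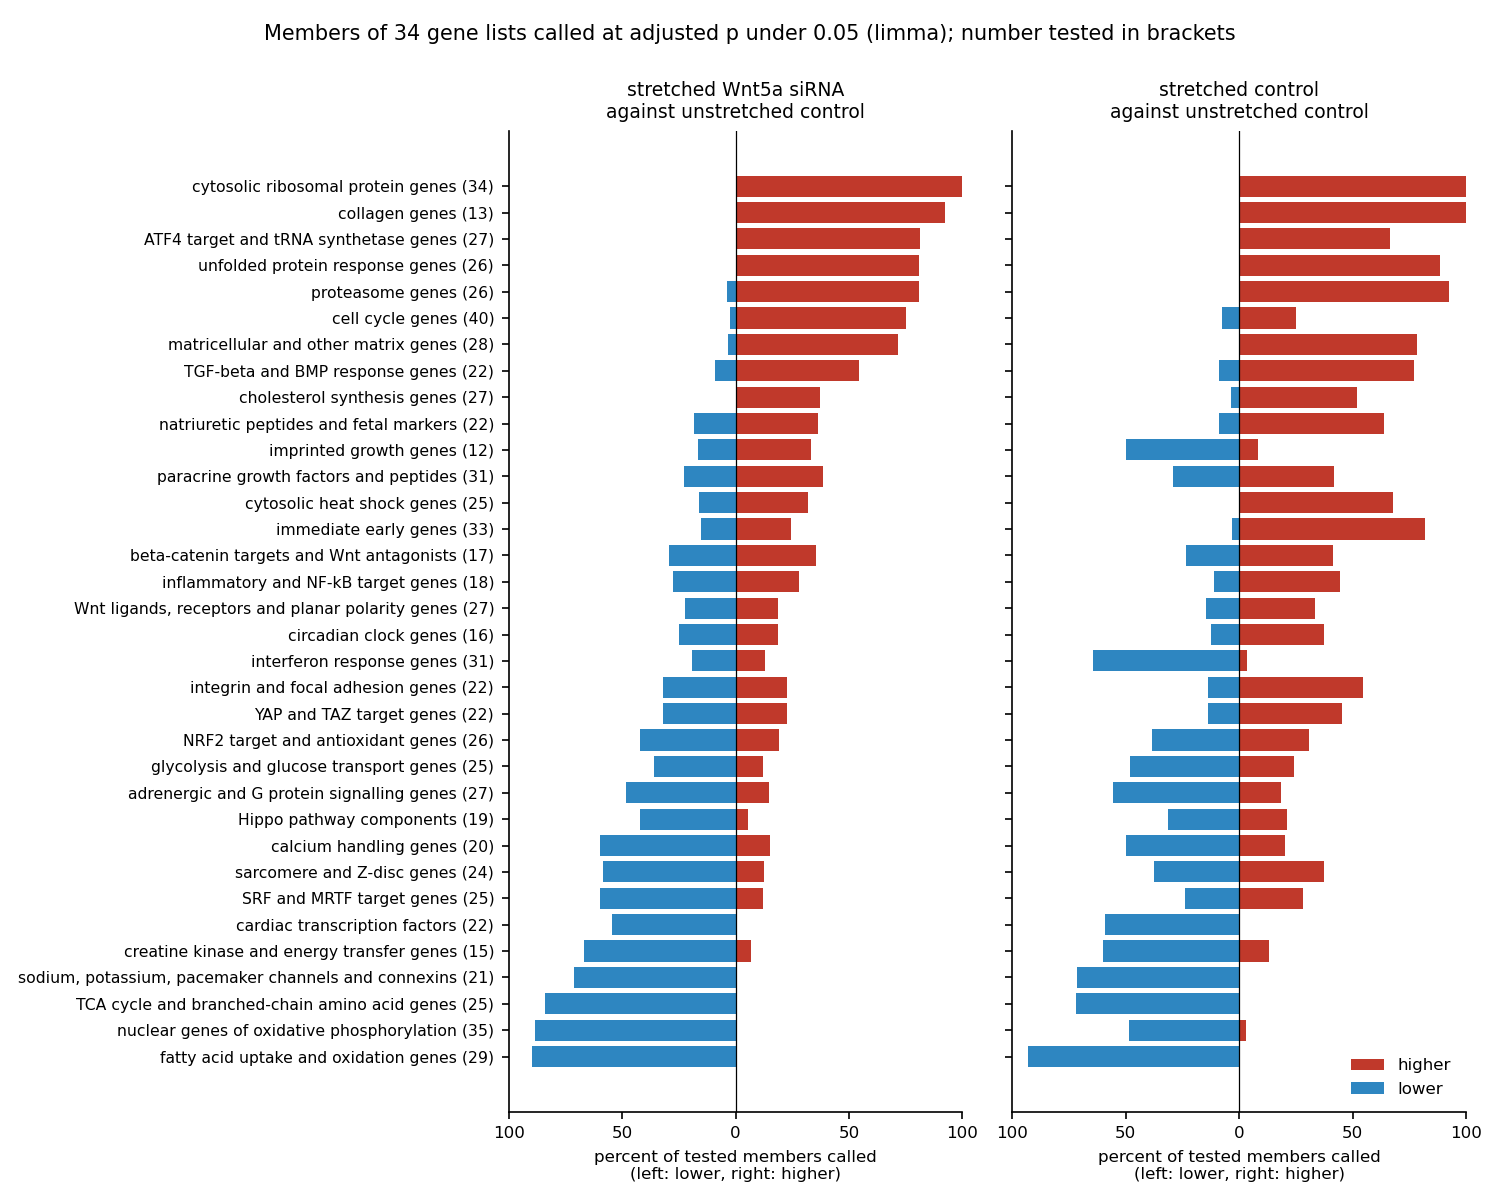
Percent of tested members (x axis; right higher, left lower) called at adjusted p under 0.05 in each of 34 gene lists (y axis, number tested in brackets), for stretched Wnt5a siRNA (left panel) and stretched control (right panel), both against unstretched control. Ribosomal and collagen genes are mostly higher and fatty acid genes mostly lower in both panels, whereas 8 of 33 immediate early genes are higher in the left panel and 27 in the right.

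Smaller lists changed little or in both directions. Of 26 NRF2 targets and antioxidant genes, 11 fell and 5 rose (median −0.18), against 10 and 8 in the stretched control (9 and 10 without its replicate 3). Cat, catalase (−0.95 ± 0.10), and Sod2, the mitochondrial superoxide dismutase (−0.47 ± 0.071), fell, while Pgd of the pentose phosphate pathway rose by 0.41 ± 0.059. Of 16 circadian clock genes, 3 rose and 4 fell (1 or 2 without any 1 library of these groups but stretched Wnt5a siRNA replicate 3), against 6 and 2 in the stretched control (6 and 3 without its replicate 3). Arntl, a core activator of the clock, rose to 15.0, 15.3 and 14.2 FPKM in stretched Wnt5a siRNA, against 8.11, 7.93 and 7.43 FPKM in unstretched control (0.84 ± 0.089, adjusted p 2.4e-05), and Per3 fell by 0.60 ± 0.14. Of 12 imprinted growth genes, 4 rose and 2 fell (4 without stretched control replicate 3), H19 and Igf2 among those that rose in every alternative, and 2 rose without stretched Wnt5a siRNA replicate 2 or 3, unstretched Wnt5a siRNA replicate 1 or unstretched control replicate 1 or 3. Of 22 natriuretic peptide and fetal genes, 8 rose and 4 fell (median 0.078), against 14 and 2 in the stretched control (median 0.86; 15 and 3 without its replicate 3). Stmn4, a stathmin, had 19.5, 18.8 and 10.8 FPKM in stretched Wnt5a siRNA, while unstretched control libraries had 0.583, 0.444 and 0 FPKM, where 0 may be a failed estimate. Csrp3, muscle LIM protein, rose by 1.17 ± 0.21 and Fhl2, another LIM protein, fell by 0.78 ± 0.086.

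The joint change differed from the sum of the single changes in many genes. The interaction, which is the stretch change with Wnt5a siRNA minus that with control siRNA on the log2 scale, was called in 2503 of 10518 genes (23.8%), 1226 positive (11.7%) and 1277 negative (12.1%). Nppa had an interaction of −3.38 ± 0.49 (adjusted p 0.00173): each treatment alone raised it, by 2.42 with stretch and 1.93 with the siRNA, yet both together by 0.96. Bdkrb2 (−2.89 ± 0.44), Xirp2 (−2.75 ± 0.36) and Fhl1, a LIM protein of muscle (−2.22 ± 0.36), also had large negative values, as did Hbegf (−2.46 ± 0.44) and Stmn4 (−3.82 ± 0.53), which has an unstretched control library listed at 0. Fhl1 had 399.7, 589.9 and 313 FPKM in stretched Wnt5a siRNA, 1000.3, 868 and 983 FPKM in the stretched control, 459, 654 and 309 FPKM in unstretched Wnt5a siRNA and 265, 209 and 187 FPKM in unstretched control. Both single treatments raised Fhl1, and with both it lay below the stretched control and overlapped unstretched Wnt5a siRNA. Lrrc39, Fn3k, Dhrs7c, Smim5 and Doc2g had positive values and were lowered by each treatment alone. Lrrc39, a muscle protein of the M band, had 9.17, 9.02 and 10.3 FPKM in stretched Wnt5a siRNA, 3.89, 3.79 and 5.74 FPKM in the stretched control, 9.85, 6.42 and 13.0 FPKM in unstretched Wnt5a siRNA and 20.0, 22.7 and 29.0 FPKM in unstretched control. Its interaction was 2.2 ± 0.29 (adjusted p 0.00136), and the stretched and unstretched Wnt5a siRNA libraries overlapped. Fn3k, fructosamine 3 kinase (2.12 ± 0.23), Dhrs7c, a dehydrogenase of muscle (2.22 ± 0.41), Smim5 (2.27 ± 0.27) and Doc2g (2.31 ± 0.50) had values of like size. Without stretched control replicate 3 the interaction was called in 3638 genes, without stretched Wnt5a siRNA replicate 3 in 1574 and without unstretched control replicate 3 in 1612.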

How the data were processed

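RNA was extracted with a miRNeasy column kit and made into stranded libraries of messenger RNA with a TruSeq kit, per the labels' protocols. The submitters' processing notes name TopHat2 2.1.1, Bowtie2, Cuffdiff 2.2.1 and the genome build rn6. The authors deposited FPKM values per gene symbol, 1 table for each of the 12 libraries; the annotation, the strand setting and the scaling between libraries were not given in the sources used here. A 0 may be a failed estimate, and genes that overlap or have near-identical copies may share reads.

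The 17312 symbols of the tables were matched to each other by name; 13770 were above 0 in at least 1 library, and 10518 reached an FPKM of 1 in at least 3 libraries and were tested. Of the 17312, 14809 are current symbols and 2117 synonyms in RefSeq's table for GRCr8. log2(FPKM + 1) of all 12 libraries was fitted with 4 group means (8 residual degrees of freedom) in limma 3.58.1 under R 4.3.3, with a trended prior variance, and tested on simulated data first. All p-values are adjusted over all tested genes by Benjamini and Hochberg's method, and intervals are 95% intervals. The sequencing depth is unknown, so no counting error is given. A gene was named if it was a readout, or among the largest called changes with a mean of at least 5 FPKM, or among the largest of its class, list or interaction sign. The 42 gene lists hold 1039 members, 983 of them in the data. The readouts, lists and rules were chosen with earlier results of these data known, so their counts are descriptions.

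The alternatives were another pseudocount (0.1), no filter or a filter of 5 FPKM, scaling every library to the same sum as in TPM, quantile normalization, a block for the replicate number, no variance trend, the 6 libraries alone, each library left out in turn, and other fold limits for calls and classes. Same-numbered libraries of the compared groups correlated in their deviations at 0.223, −0.0325 and 0.0842, so the numbers were not taken as pairs there. Those of the stretched and unstretched Wnt5a siRNA groups correlated at 0.184, 0.242 and 0.143 and thus deviate together. Their direct contrast was fitted as well, but the results given here use these groups together only in the interaction. In the other 4 pairs of groups at least 1 number correlated under 0.1. Among these, stretched Wnt5a siRNA and stretched control, whose contrast enters the classes, correlated at 0.219, 0.0947 and 0.231. With the replicate block 44 genes were returned, against 26 in the main fit.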

Additional observations from a re-analysis of the deposited data

Results flagged for a closer look

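The change with stretch differed between Wnt5a siRNA and control siRNA in 2503 of 10518 genes, by the interaction test in limma with Benjamini-Hochberg adjustment. Among the readouts the interaction, which is the log2 change with stretch under Wnt5a siRNA minus that under control siRNA, was 0.70 for Wnt5a, −3.38 for Nppa, −2.15 for Nppb, −1.12 for Myh7, −1.09 for Cyr61 and −1.58 for Ctgf. That of Wnt5a had an adjusted p of 0.0244 and lost its call without stretched Wnt5a siRNA replicate 1, stretched control replicate 1, unstretched Wnt5a siRNA replicate 2 or unstretched control replicate 1 or 3, with adjusted p of 0.0514 to 0.0559. Among genes named for their size it was −2.89 for Bdkrb2, −2.75 for Xirp2, −2.22 for Fhl1 and −2.10 for Rnd1, a small GTPase, and 2.31 for Doc2g, 2.27 for Smim5, 2.22 for Dhrs7c, 2.2 for Lrrc39 and 2.12 for Fn3k.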

How the results depend on the processing

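With calls of at least 1.5-fold the net change was called in 1847 genes, 857 higher and 990 lower, and with scaling to the same sum 1578 genes were higher. Over the other settings and each library left out, the number of net calls lay between 3827 and 5591. The replicate block gave 4847 net calls, 44 returned genes and 2566 called interactions, and it changed the call of no interaction given above. Each library left out in turn gave 14 to 107 returned, 138 to 347 partly returned, 247 to 453 not returned and 75 to 154 undecided genes, 0 to 4 past the unstretched control, and 1574 to 3638 called interactions. A response limit of 1.5-fold gave 398 returned, 424 partly returned, 1249 not returned and 294 undecided genes and 3 past the unstretched control. A margin of 1.2-fold gave 0 returned genes in limma's intervals, against 123 undecided. A margin of 2-fold gave 204 returned, 158 partly returned and 38 undecided genes. With a pseudocount of 0.1, 498 were not returned and 261 undecided, and with scaling to the same sum 166 were undecided. Quantile normalization kept 15 of the 26 returned genes. Among the 214 named genes, no net change that was called in the main fit or in the alternative reversed its sign under these settings. Some uncalled net changes did change sign, as for Ctgf (−0.28 to 0.058 over the settings) and Des (−0.21 to 0.066). The call of Nppa was also lost without the filter (adjusted p 0.0708) and with the scalings (0.0529 and 0.132), and that of Cyr61 without the filter (0.0541); Ankrd1 was called with quantile normalization (0.0373), and Nppb with the block (0.0171). The cause of these shifts was not tested. The unknown depth and 3 libraries per group limit what can be told apart.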
